A study of Mus musculus with 4 samples.

Results

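Runx2, Spp1, Ibsp, Cdh11 and Lpl were taken by name from tables holding 17507 gene names, and all 5 were found. The first 4 stand for the osteogenic, or bone-forming, side of the marrow stroma, and Lpl for its adipogenic, or fat-forming, side. Their transcripts were followed in single bone marrow cells of C57BL/6 mice that lacked surface CD51 (the alpha V integrin, product of Itgav) and that had been sorted as CD44+ or as CD44-. The labels call these cells TNCs and leave the abbreviation unexplained, and they give no age, sex or number of animals. Strain, digestion of the marrow with collagenase IV and dispase, and the lack of CD51 were common to both sorts, and no other treatment is named. The series title asks whether marrow cells without CD45 belong to the blood lineages, so these stromal genes mark the cells on the other side of that question. Of 1536 wells on 4 plates, 343 with at least 1000 transcripts were kept as cells, of which 238 were CD44+ and 105 CD44-. One plate per sort is replicate 1, and the row blocks of 2 plates that carried both sorts are replicates 2 and 3, giving 3 libraries per sort.

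Runx2 is the transcription factor that starts osteoblast differentiation and acts through a short DNA element, the RUNX core. Spp1 (osteopontin) and Ibsp (bone sialoprotein) are acidic glycoproteins of the bone matrix, Cdh11 is a cadherin of mesenchymal cells, known as the osteoblast cadherin, and Lpl (lipoprotein lipase) releases fatty acids from circulating triglyceride and is an early gene of fat cell formation. In adult marrow, reticular stromal cells that secrete the chemokine Cxcl12 hold blood stem cells in their niche and give rise to bone and fat cells. Both antigens used for the sort bear on the matrix proteins: CD44 is a hyaluronan receptor that also binds osteopontin, and CD51 pairs with beta integrins into receptors for osteopontin and bone sialoprotein.

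Spp1 and Ibsp lie on the same strand of one chromosome, and the bases before their starts are shown because both genes were high in the same wells and RUNX factors are known to act on this gene class. In GRCm38 with GENCODE vM21 annotation, Ibsp spans chr5:104299171-104311469 and Spp1 spans chr5:104435118-104441050, both on the plus strand and 123648 bases apart. Runx2 lies on the minus strand at chr17:44495987-44814797. Cdh11, on the minus strand, spans chr8:102632095-102785642, and Lpl, on the plus strand, spans chr8:68880491-68907448. The sequences below come from RefSeq promoter windows (GRCm38.p6, plus strand), which were found for 3 of the 5 members. They cover chr5:104299037-104299170 for Ibsp and chr5:104434861-104435110 for Spp1 and stop before the annotated transcript. Capitals mark the RUNX core, searched as TGTGGT on both strands, so that it reads ACCACA here.
Ibsp: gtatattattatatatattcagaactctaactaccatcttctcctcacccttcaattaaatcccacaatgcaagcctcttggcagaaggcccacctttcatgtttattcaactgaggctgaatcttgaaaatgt
Spp1: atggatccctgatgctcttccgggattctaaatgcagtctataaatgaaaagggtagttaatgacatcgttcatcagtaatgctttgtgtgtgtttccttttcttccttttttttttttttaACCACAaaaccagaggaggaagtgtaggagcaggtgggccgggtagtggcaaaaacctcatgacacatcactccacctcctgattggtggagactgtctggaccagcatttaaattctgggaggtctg
In the printed bases the RUNX core was found 1 time for Spp1, 128 bases before the RefSeq start of that window, and not for Ibsp, whose RefSeq start lies inside the span given above, so that 134 bases of its window are shown. A second RefSeq window for Spp1, chr5:104435942-104436191, held no RUNX core. The Runx2 window held 1 match, 80 bases before its RefSeq start, a position that also lies inside the GENCODE span of the gene. Of 32851 windows of 250 bases, 14.05% held the RUNX core. Such a match describes the letters in the window only.

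The CD44+ libraries held 56, 95 and 87 wells with medians of 1994, 5162 and 11225 transcripts per well. The CD44- libraries held 44, 24 and 37 wells with medians of 1848, 1795 and 2544. Because depth differed between the sorts, levels are given as CPM, transcripts per 1000000 of a library's total, and shares of wells were also taken after thinning every well to 1000 transcripts. Wells of low quality (rich in Kcnq1ot1 and the transcripts that follow it, or at least 50% mitochondrial) made up 25.3% to 55.4% of the CD44+ libraries and 8.33% to 43.2% of the CD44- libraries. A count of 3 transcripts, taken as the detection limit, is 1.76 to 20.0 CPM in the CD44+ libraries and 18.9 to 30.9 CPM in the CD44- libraries.

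All 5 genes stood lower in the CD44+ than in the CD44- sort in each of the 3 pairs of libraries, and for 2 of them, Runx2 and Cdh11, the difference passed the test over all genes. The test was edgeR's quasi-likelihood test on library sums with Benjamini-Hochberg adjustment, and all 5 passed its filter on low counts. Runx2, Spp1 and Cdh11 were sparse in the CD44+ libraries and could pass the filter only through the CD44- libraries. That fixed their direction. With no filter all 5 were still called lower, as were 335 of 16924 genes in all. With the filter, 0.974% of the 2463 genes tested were called lower in the CD44+ sort. How many of them stood lower in all 3 pairs was not counted. In the pair of replicates 1, CD44+ against CD44-, Lpl rests on 5 against 6 transcripts and Spp1 on 3 against 7. A library sum cannot tell fewer cells with a gene from less of it per cell, which the wells themselves show further on.

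Runx2 was listed at 0 in CD44+ replicate 1, where the limit is 20.0 CPM, and stood at 20.6 and 10.5 CPM in CD44+ replicates 2 and 3. The CD44- libraries, in replicate order, reached 103, 118 and 258 CPM. Every CD44- library thus lay above every CD44+ library, and the fitted difference, CD44+ minus CD44-, was -3.77 on the log2 scale (SE 0.62, adjusted p = 0.0410 by edgeR). In CD44- replicate 1, 7 of the 10 Runx2 transcripts came from 1 well of low quality with 0 Cxcl12. Cdh11 gave the same order, with 20.0, 46.5 and 19.9 CPM in CD44+ cells, and 227, 414 and 1071 CPM in CD44- cells. Its difference was -4.32 (SE 0.64, adjusted p = 0.0358 by edgeR).

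The 2 matrix genes did not overlap between the sorts either, but missed the threshold. Spp1 stood at 20.0, 40.2 and 11.7 CPM in CD44+ replicates 1 to 3 and at 72.1, 217 and 932 CPM in CD44- replicates 1 to 3, a difference of -4.12 (SE 0.92, adjusted p = 0.0813 by edgeR). Ibsp stood at 6.68, 104 and 104 CPM against 443, 740 and 1399 CPM, a difference of -3.63 (SE 0.69, adjusted p = 0.0556 by edgeR). The spread among the CD44- libraries was wide for Spp1, whose highest library was CD44- replicate 3 and whose lowest was CD44- replicate 1. Without CD44- replicate 3 the Spp1 difference was -2.70 (adjusted p = 0.235 by edgeR).

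Lpl was the member whose sorts overlapped. It stood at 33.4, 113 and 58.6 CPM in CD44+ replicates 1 to 3 and at 61.8, 464 and 1273 CPM in their CD44- counterparts, so that CD44- replicate 1 lay below CD44+ replicate 2. The difference was -3.13 (SE 0.86, adjusted p = 0.122 by edgeR), and -2.00 without CD44- replicate 3 (adjusted p = 0.288 by edgeR). The 4 osteogenic members did not overlap between the sorts with the CD44+ libraries lower, as did 9.22% of the 2463 genes.

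**Figure D1:**
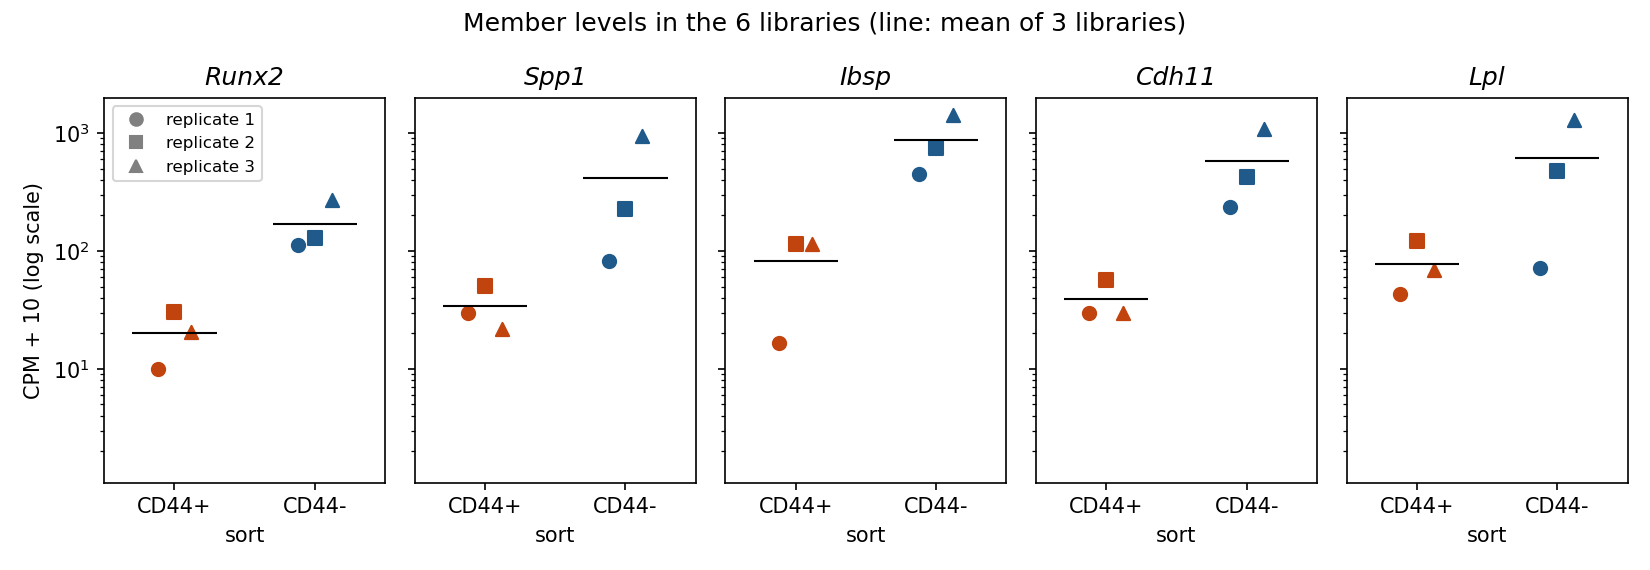
Level of each member in the 6 libraries, as CPM plus 10 on a log axis, for the CD44+ and CD44- sorts; each point is 1 library, its shape the replicate number, and the line the mean of 3 libraries. The CD44- libraries lie above all CD44+ libraries for Runx2, Spp1, Ibsp and Cdh11, while CD44- replicate 1 of Lpl, at 61.8 CPM, lies below CD44+ replicate 2, at 113 CPM.

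Libraries with the same number deviated together, and with the pair as a block all 5 members were called lower in the CD44+ sort, against 4.59% of all genes; DESeq2 without the block also called all 5, against 6.98%. The blocked differences were -3.94 for Runx2 (adjusted p = 0.00580), -4.09 for Spp1 (0.0232), -3.78 for Ibsp (0.00148), -4.40 for Cdh11 (0.00218) and -2.95 for Lpl (0.0239), all by edgeR. On the shared plates alone, which came from 1 flow cell, all 5 were also called lower, against 2.04% of all genes. The other flow cell holds 1 library per sort and gives no test of its own, and the interaction of sort and flow cell called 0 of 2463 genes with edgeR (87 at an unadjusted p under 0.05; DESeq2 was not run for it).

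The unblocked count of 2 depended on single libraries. Without CD44- replicate 1 all 5 members were called, against 3.47% of all genes. Without any other single library, that is CD44+ replicate 1, 2 or 3 or CD44- replicate 2 or 3, edgeR called 0 of the 5 and also 0 of all 2836 to 3204 genes tested, so that these settings do not set the members apart; each of the 5 then had an unadjusted p under 0.05 (DESeq2 was not run without a library). Without the wells of low quality, Spp1, Ibsp and Cdh11 were called, against 2.31% of all genes, Lpl was not, and Runx2, called with all wells, did not pass the filter. Which animals contributed to each plate is not stated, so these p-values measure the spread between libraries only.

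The sort difference was then set beside the wells that held it. A well was called Cxcl12-rich where Cxcl12 made up at least 1% of its transcripts, a choice that used none of the 5 members. This gave 19 of the 343 wells, and in them Cxcl12 made up 1.58% to 8.31% of the transcripts. CD44+ replicates 1, 2 and 3 held 0 of 56 (an upper limit of 5.36% for 3 wells), 3 of 95 (3.16%, 95% exact binomial interval 0.656% to 8.95%) and 1 of 87 (1.15%, 0.0291% to 6.24%) such wells. CD44- replicates 1, 2 and 3 held 4 of 44 (9.09%, 2.53% to 21.7%), 1 of 24 (4.17%, 0.105% to 21.1%) and 10 of 37 (27.0%, 13.8% to 44.1%). The intervals cover counting error only.

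Every CD44- library thus held a larger share of Cxcl12-rich wells than any CD44+ library, with means of 1.44% ± 1.60 (SD, n = 3) against 13.4% ± 12.03 (SD, n = 3). The exact permutation test over libraries gave p = 0.1 (two-sided), which is the smallest value that 3 against 3 can give. The separation rests on 1 of 24 against 3 of 95 wells, and the sorts overlapped (p = 0.2, exact permutation test) with a limit of 0.5% Cxcl12, without wells of low quality and with wells of at least 500 transcripts. CD44- replicate 3 held 10 of the 19 wells, and without it the mean of the CD44- sort was 6.63% ± 3.48 (SD, n = 2).

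All 5 members were higher in the Cxcl12-rich wells than in the other wells of the same libraries. The 19 wells made up 134288 of the transcripts summed over all kept wells, against 3198630 in the 324 other wells, yet they held 67.3% of all Runx2 transcripts, 93.9% of Spp1, 87.7% of Ibsp, 83.6% of Cdh11 and 84.4% of Lpl. The comparison used edgeR with the library as a block over 5 libraries, since CD44+ replicate 1 held no Cxcl12-rich well and drops out. Of 1119 genes tested, 20.5% were called higher and 39.7% lower in the Cxcl12-rich wells, and the 5 members are among the higher ones. All 5 members were sparse in the other wells and could pass the filter only through the rich wells. That fixed their direction. With no filter all 5 were still called higher, as were 536 of 16454 genes in all.

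Runx2 stood at 855 and 158 CPM in the Cxcl12-rich wells of CD44+ replicates 2 and 3, and at 379, 543 and 537 CPM in those of CD44- replicates 1, 2 and 3. In the other wells of the same libraries it stood at 5.46, 8.88, 78.7, 46.2 and 23.3 CPM. In this order the levels in the rich wells rest on 17, 3, 3, 8 and 39 transcripts. Those in the other wells rest on 6, 15, 7, 4 and 2. The levels of 158 and 379 CPM thus lie at the limit of 3 transcripts. The fitted difference, rich minus other, was 3.73 (SE 0.66, adjusted p = 4.16e-06 by edgeR), the smallest of the 5.

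Spp1 had the largest fitted difference, while those of Ibsp and Lpl lay within 1 SE of each other and changed order between settings. In the same order of libraries, Spp1 stood at 2116, 792, 757, 1496 and 1998 CPM in the Cxcl12-rich wells and at 2.73, 2.96, 11.2, 0 and 34.9 CPM in the other wells, a difference of 7.00 (SE 0.71, adjusted p = 9.92e-12 by edgeR). Ibsp stood at 4499, 8431, 4932, 3825 and 2927 CPM against 24.6, 10.7, 44.9, 219 and 105 CPM, a difference of 5.84 (SE 0.67, adjusted p = 1.75e-10 by edgeR). In CD44- replicate 2, the single Cxcl12-rich well held all 22 Spp1 transcripts of the library.

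Cdh11, the cadherin, stood at 1711, 1427, 1517, 2179 and 2262 CPM in the Cxcl12-rich wells and at 16.4, 4.15, 112, 115 and 58.1 CPM in the other wells, a difference of 4.94 (SE 0.63, adjusted p = 2.52e-09 by edgeR). Its level in the Cxcl12-rich wells varied less among the 5 libraries than that of any other member, and the values of the CD44+ and CD44- sorts overlapped. Lpl, the adipogenic member, followed the osteogenic ones, with 4087, 4685, 505, 2589 and 2717 CPM against 41.0, 6.52, 22.4, 104 and 46.5 CPM. Its difference was 5.68 (SE 0.68, adjusted p = 4.31e-10 by edgeR), and its lowest library was CD44- replicate 1, where the 4 Cxcl12-rich wells held 4 Lpl transcripts in all.

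**Figure D2:**
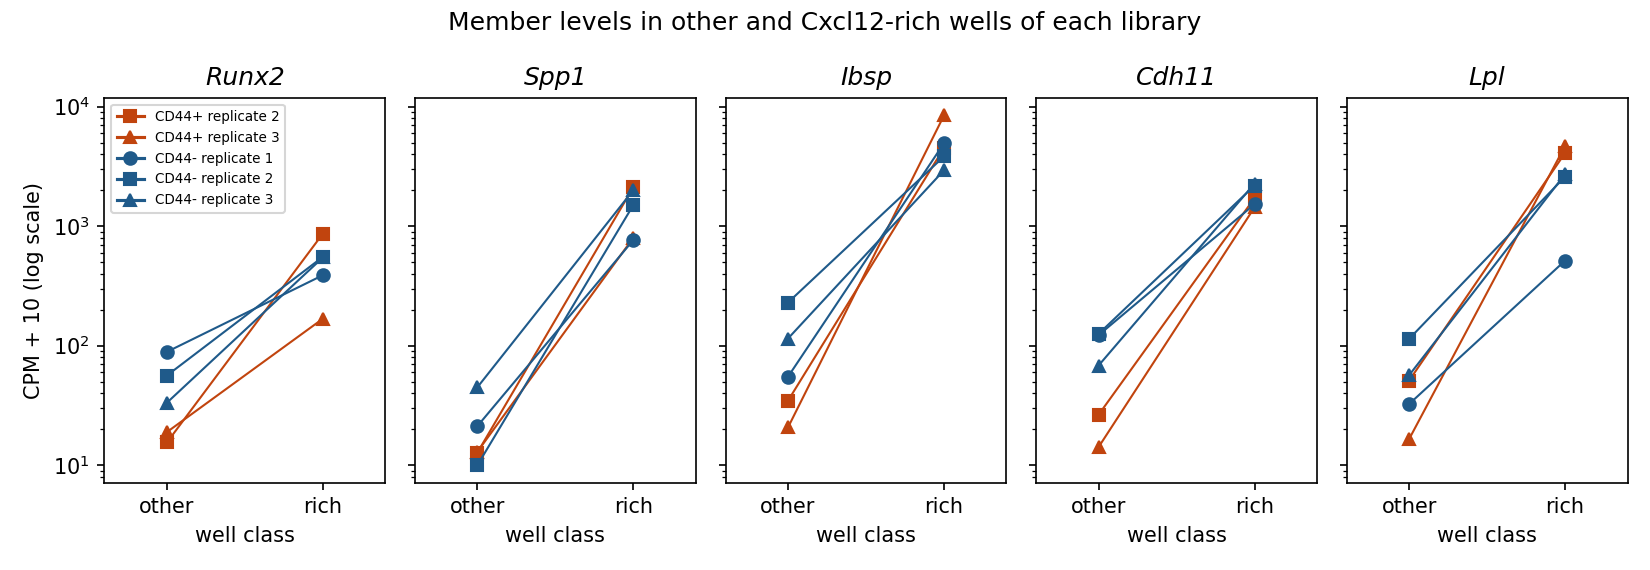
Level of each member in the other wells and in the Cxcl12-rich wells of the 5 libraries that hold both, as CPM plus 10 on a log axis; each line is 1 library, coloured by sort, with the symbol giving the replicate. Every line rises, for Lpl from 22.4 to 505 CPM in CD44- replicate 1 and from 6.52 to 4685 CPM in CD44+ replicate 3.

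The size of these differences depends on the scaling, since the median of all 1119 genes was -1.01 with TMM factors, -0.12 with library size alone and -0.66 with DESeq2. All 5 members were called higher under each of the 3, between 3.73 and 4.64 for Runx2 and between 7.00 and 7.97 for Spp1. Of all calls, 34.0% were higher in the Cxcl12-rich wells with TMM factors, 56.2% with library size alone and 40.2% with DESeq2. The difference between well classes was not shown to depend on the sort: the interaction of class and sort called 0 of 1119 genes with edgeR (86 at an unadjusted p under 0.05, Ibsp, Cdh11 and Lpl among them; DESeq2 was not run for it), with adjusted p of 0.372 to 0.691 for the members.

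The wells on either side of the 1% limit show how sharp it is for the members. Just inside it, at 1.58%, a well of 1456 transcripts held 7 Ibsp and 3 Lpl transcripts and none of the other 3 genes, and at 1.74% a well held none of the 5. Just outside it, at 0.740%, a well held 1 Spp1, 2 Ibsp and 2 Cdh11 transcripts, and at 0.616% a well held 3 Ibsp transcripts. At 2.41% a well held all 5 genes, from 8 transcripts of Runx2 to 51 of Ibsp.

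Outside the Cxcl12-rich wells the members were sparse, and no member passed the filter of the sort comparison there, with or without the block, so that none was tested. Runx2 then stood at 0, 5.46 and 8.88 CPM in CD44+ replicates 1 to 3 and at 78.7, 46.2 and 23.3 CPM in their CD44- counterparts, which rest on 0, 6 and 15 against 7, 4 and 2 transcripts. Cdh11 stood at 20.0, 16.4 and 4.15 CPM against 112, 115 and 58.1 CPM, and Ibsp at 6.68, 24.6 and 10.7 CPM against 44.9, 219 and 105 CPM. By level these 3 genes did not overlap between the sorts, as was true of 5.77% of the 2463 genes, but the Runx2 level in CD44- replicate 3 rests on 2 transcripts and cannot be told apart from that of CD44+ replicate 1. The 7 Runx2 transcripts of CD44- replicate 1 all came from 1 well of low quality. Among other wells thinned to equal depth, the shares of wells with Runx2, Spp1, Cdh11 and Lpl overlapped between the sorts (p = 0.5, 1, 0.3 and 0.5, exact permutation test), and those of wells with Ibsp did not (p = 0.1, or 0.5 adjusted over the 5 genes). How many of all genes lacked such an overlap at equal depth was not counted.

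The share of wells with a transcript of each gene was compared at equal depth, because deeper wells show more genes. After thinning to 1000 transcripts, Runx2 was found in 5 of the 19 Cxcl12-rich wells and 1.86% of 323 other wells, 1 well having too few whole transcripts to thin. Spp1 was found in 13 rich wells and 0.929% of the others, Ibsp in 15 and 4.64%, Cdh11 in 12 and 2.48%, and Lpl in 15 and 2.79%. The shares in the other wells serve as the comparison and include wells just under the 1% limit on Cxcl12. What free RNA or a neighbouring cell gave was not tested. Unthinned, the members were found in 13, 15, 15, 16 and 17 of the rich wells and in 5.56%, 4.32%, 12.96%, 10.2% and 11.4% of the 324 others. Rich wells had a median of 6367 transcripts and other wells one of 3155.

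Between the sorts, the thinned shares of wells were lower in the CD44+ libraries on average for each gene. Runx2 was found in 0%, 1.05% and 2.30% of the wells of the CD44+ libraries and in 4.55%, 13.04% and 8.11% of those of the CD44- libraries. The means were 2.41% against 9.27% for Spp1, 3.88% against 20.6% for Ibsp, 2.87% against 13.3% for Cdh11 and 3.25% against 14.5% for Lpl (n = 3 each). The exact permutation test gave p = 0.1 for the 4 osteogenic members, whose libraries did not overlap, and 0.3 for Lpl, or 0.125 and 0.3 adjusted over the 5 genes. The share of all genes without overlap at equal depth was not taken, so this does not set the members apart. Unthinned, the p-values of the same exact permutation test lay between 0.2 and 0.7.

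Osteogenic and adipogenic genes were found together in the Cxcl12-rich wells. Of the 19 wells, 17 held Lpl together with at least 1 of Runx2, Spp1, Ibsp and Cdh11, 1 held osteogenic members only, 0 held Lpl only and 1 held none of the 5. All 5 genes were found in 10 wells. Both sorts showed this, with 4 of 4 CD44+ wells and 13 of 15 CD44- wells holding both kinds.

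Among the 324 other wells, 17 held both kinds, 61 osteogenic members only, 20 Lpl only and 226 none. At equal depth, 15 of 19 rich wells and 1 of 323 other wells held both, while 26 other wells held osteogenic members only and 8 Lpl only. Each well was sorted as a single cell, and no doublet caller was run, so that 2 cells in a well cannot be told apart from 1 cell with both kinds of transcript.

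**Figure D3:**
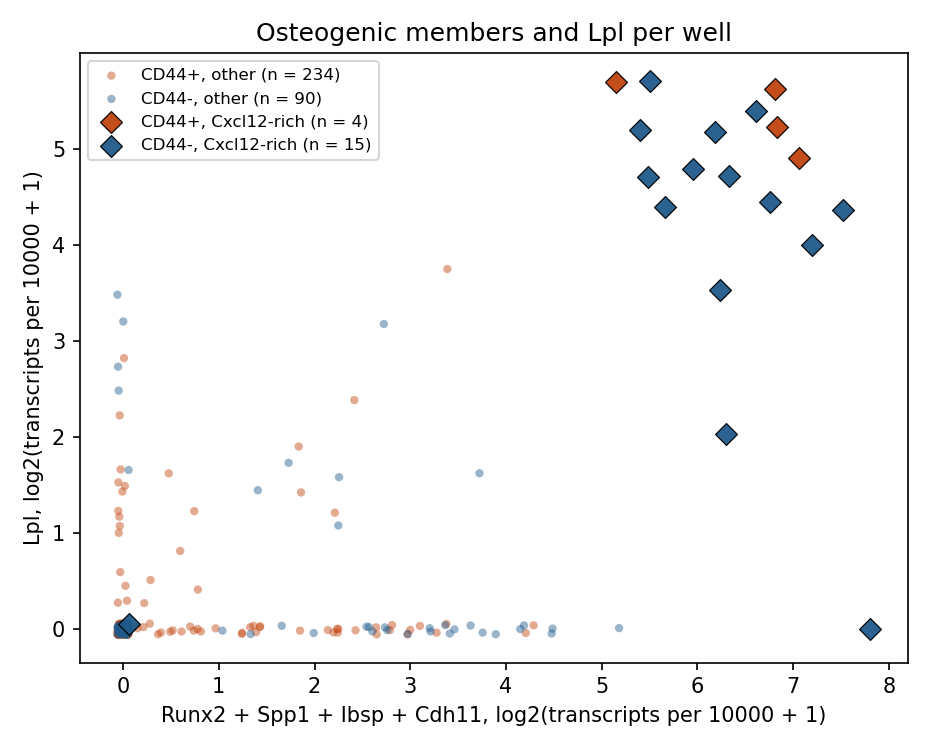
Summed level of Runx2, Spp1, Ibsp and Cdh11 (horizontal) against the level of Lpl (vertical) in each of the 343 wells. Both are log2 of transcripts per 10000 plus 1, with a small jitter on every well. Diamonds are Cxcl12-rich wells, dots the others, coloured by sort. Apart from the jitter, 17 of the 19 diamonds lie away from both axes, 1 lies on the horizontal axis with no Lpl, and 1 lies at the origin.

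Within the rich wells the mixture varied from well to well. Runx2 ranged from 0 to 11 transcripts with a median of 3, Spp1 from 0 to 25.1 with a median of 15.03, Ibsp from 0 to 160 with a median of 18.0, Cdh11 from 0 to 56.4 with a median of 12.02, and Lpl from 0 to 89.0 with a median of 18.0. Scaled to 10000 transcripts of the well, Ibsp varied the most after Runx2, with a coefficient of variation of 105%, against 61.5% for Lpl and 111% for Runx2.

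Ibsp was missing from 4 of the 19 wells. In 3 of these the depth of 4415, 7607 and 19073 transcripts puts the limit of 3 transcripts at 6.79, 3.94 and 1.57 per 10000, below the median of 36.0 per 10000 over all rich wells. The same 3 wells held Lpl at 49.96, 52.8 and 25.3 per 10000 and Cdh11 at 40.9, 14.5 and 29.6 per 10000. The fourth, a well of low quality with 1901 transcripts, held none of the 5. At the other end, the well with the highest Ibsp level, 186 per 10000, held neither Runx2 nor Spp1, and its depth of 2544 transcripts puts the limit at 11.8 per 10000.

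**Figure D4:**
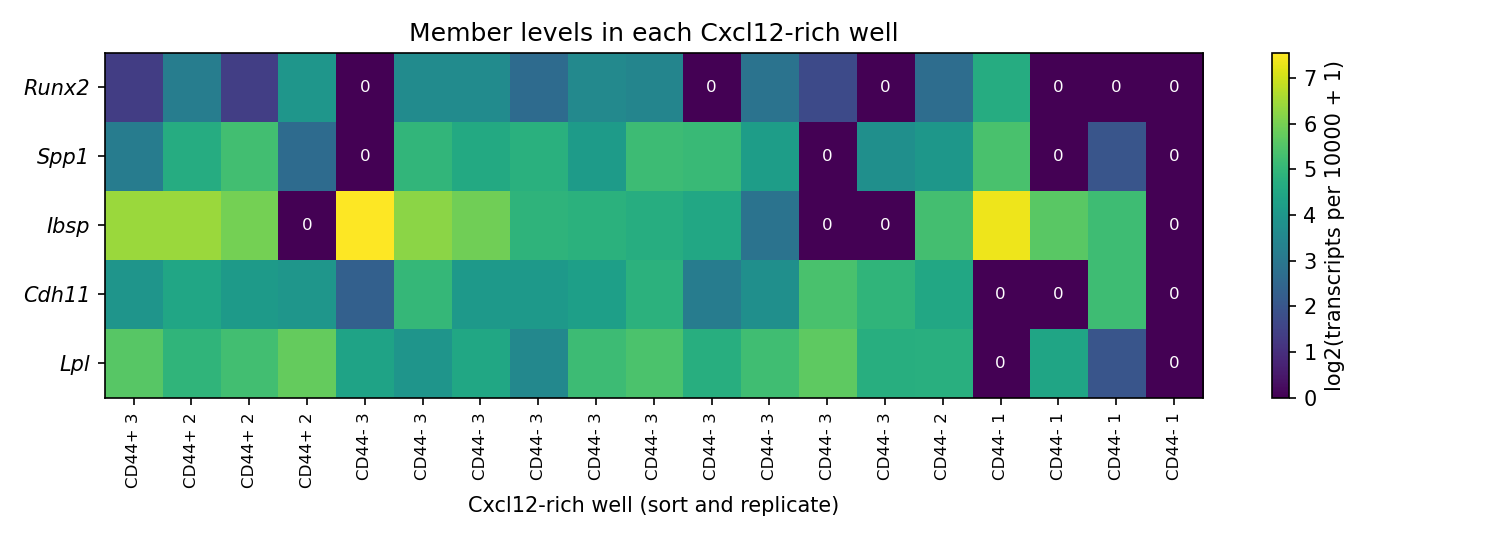
Level of each member (rows) in each of the 19 Cxcl12-rich wells (columns, named by sort and replicate), as log2 of transcripts per 10000 plus 1, with 0 printed where no transcript was found. Lpl is found in 17 columns, Ibsp is at 0 in 4, and 1 column, from CD44- replicate 1, is at 0 for all 5.

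Across the 19 rich wells, the levels of Cdh11 and Lpl had a Pearson correlation of 0.61 and those of Runx2 and Spp1 one of 0.59. Ibsp had -0.06 with Lpl and -0.12 with Cdh11. Spearman's values were 0.28, 0.51, -0.27 and -0.19, so that the first pair rests in part on single wells. These describe 19 wells of 5 libraries that differ in depth, from 1230 to 19073 transcripts, and no test was made on them.

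Over all 343 wells, the genes whose levels were most like each member's were taken from 10596 genes found in at least 10 wells. Runx2 was most like Spp1 (Pearson 0.66), Serpinh1, the collagen chaperone (0.66), and Kng1 (0.65). Spp1 was most like Il34 (0.84), Kitl, the ligand of the stem cell receptor Kit (0.80), and Fstl1 (0.79). Ibsp was most like the matrix proteoglycan Dcn (0.74), Gdpd2 (0.72) and Igfbp5 (0.71). Cdh11 was most like Fbln5 (0.79), Ccrl1 (0.78) and the adipokine gene Adipoq (0.77). Lpl was most like the myelin and growth arrest gene Pmp22 (0.82), Cyp1b1 (0.82) and Agt, which encodes angiotensinogen (0.80). Cxcl12 itself ranked 6 for Ibsp and 50 to 85 for the other 4. Apart from Cxcl12, the genes named here were found in 11 to 19 of the 19 rich wells and in 2 to 28 of the 324 others, so the values rest on the same few wells.

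Other genes of the same pathways were read from lists, with the log2 difference between rich and other wells in parentheses. Of 30 genes of the osteogenic programme, Runx2 included, 26 were named in the tables and 5 passed the filter of the class comparison, and all 5 were higher in the rich wells, against 20.5% of all genes. Besides Runx2 these were the collagens Col1a2 (5.88) and Col5a2 (6.69) and the matrix genes Sparc (6.66) and Ogn (5.04), with a list median of 5.88 against -1.01 over all genes. A gene nearly absent from the other wells could pass the filter only through the rich wells, so the direction of such genes was fixed by it. Of the 21 named genes that did not pass, 14 had a higher and 7 a lower CPM in the summed rich wells, where 3 transcripts are 22.3 CPM. Among them Col1a1 had 44 transcripts in 5 of the 19 wells, Wif1 18 in 10, Mmp13 16 in 7 and Phex 16 in 4, while Alpl had 3 in 1 well, Sp7 and Dmp1 were at 0, and Cbfb, the partner of Runx2, stood at 44.7 CPM against 62.2 CPM in the other wells. In the sort comparison 3 of the 5 tested were lower in the CD44+ sort, against 0.974% of all genes. They were Runx2, Sparc (-4.08, adjusted p = 0.0410 by edgeR) and Ogn (-4.17, adjusted p = 0.0488 by edgeR).

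Of 30 genes of the adipogenic programme, 28 were named, 8 passed the filter and all 8 were higher in the rich wells, with a median of 5.74; the same limit of the filter applies, Foxc1 and Agt having 7 transcripts each in the other wells. They included Agt (6.44), Foxc1 (6.96), Esm1 (6.66), the leptin receptor gene Lepr (6.02), Ebf3 (5.47) and Hp (4.82). All of these but Agt are also on the list of niche genes given below, so the lists are not independent of each other. In the sort comparison 1 of 6 tested was lower in the CD44+ sort, Lepr (-3.09, adjusted p = 0.0488 by edgeR), and 5 of 6 with the block. Of all genes, 0.974% were called lower without the block and 4.59% with it. Adipoq, which encodes adiponectin, was found in 17 of the 19 rich wells with 140 transcripts, against 13 transcripts in 8 of the 324 others. Of the 20 named genes that did not pass, Adipoq among them, 11 had a higher CPM in the summed rich wells, 7 a lower one, and the remaining ones were at 0 in both classes. Cebpa, a transcription factor of fat cells, stood at 387 CPM against 12.2 CPM. Pparg, also below the filter, had 2 transcripts in 2 rich wells and 8 in 4 of the others. Lower in the rich wells were Cd36, a fatty acid transporter (0 against 30.7 CPM), Plin2, a lipid droplet coat protein (22.3 against 55.7 CPM), Fabp5 (7.45 against 31.3 CPM) and Pnpla2, a triglyceride lipase (14.9 against 34.7 CPM), each at or under the limit of 3 transcripts in the rich wells. Cidec, Fabp4 and Retn had 0 transcripts in the rich wells and at most 4 in the others.

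Genes that handle the Lpl protein were followed in a list of 17, of which 13 were named and 4 were tested. Angptl4, a secreted inhibitor of the enzyme (5.08), Lrp1, a lipoprotein receptor (4.75), and Sel1l, needed for its exit from the endoplasmic reticulum (2.04), were higher in the rich wells, and Furin (0.54, adjusted p = 0.435 by edgeR) did not pass. Of the 9 named genes below the filter, 3 had a higher and 5 a lower CPM in the rich wells. None of the list's genes was called between the sorts, where only Sel1l was tested with edgeR (-1.13, adjusted p = 0.175). Cdh2, N-cadherin, was tested beside Cdh11 and was higher too (7.34, adjusted p = 4.84e-10 by edgeR), with 87 transcripts in 16 rich wells and 5 in 5 others. The same limit of the filter applies to Cdh2, and to Angptl4 and Lrp1, with 47 and 32 transcripts in the other wells. Ctnnb1, beta-catenin, to which both cadherins bind, did not pass (-0.81, adjusted p = 0.229 by edgeR, and 0.10 with library size alone).

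Of 12 genes for receptors of osteopontin and bone sialoprotein, 3 were tested in the class comparison. Itgb1 was higher in the rich wells (1.20, adjusted p = 0.0400 by edgeR), and also with library size alone (2.12) and DESeq2 (1.58). Itga4 was lower (-2.79, adjusted p = 0.000480 by edgeR) under each of the 3 scalings, whereas Cd44 was lower with TMM (-1.93, adjusted p = 0.0104 by edgeR) and DESeq2 (-1.57) but did not pass with library size alone (-0.99, adjusted p = 0.227 by edgeR). Cd44, the gene of the sort antigen, was not called between the sorts (-0.04, adjusted p = 0.973 by edgeR).

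Itgav, the gene of the CD51 antigen that all sorted cells lacked at the surface, did not pass the filter. Its 33 transcripts in the rich wells came from 14 of 19 wells, against 22 transcripts in 15 of 324 others. By library, the rich wells held 352 and 422 CPM in CD44+ replicates 2 and 3 and 126, 0 and 234 CPM in CD44- replicates 1, 2 and 3, while other wells held 1.78 to 34.6 CPM. After thinning, Itgav was left in 2 of 19 rich wells and 5 of 323 others.

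Genes of the marrow niche were read in the same way. Lepr, Ebf3, Foxc1, Esm1, Hp and Adipoq are also on the adipogenic list, and Sparc is also on the osteogenic one. Of 20 listed, all were named, 16 passed the filter and all 16 were higher in the rich wells, against 20.5% of all genes. Their median was 6.17, with Cxcl12 among them because it chose the wells. The same limit of the filter applies, Pdgfrb having 2 and Kitl 27 transcripts in the other wells. The 4 genes that did not pass had a higher CPM in the summed rich wells too. The 16 genes that passed included the receptor Pdgfrb (8.75), Kitl (7.07) and Igfbp5 (5.97). In the sort comparison 6 of 14 tested were lower in the CD44+ sort, and 13 of 14 with the block, against 0.974% and 4.59% of all genes.

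Marker lists of other cells give the company of the 5 genes. Without Cxcl12, which chose the wells, all 7 niche stroma markers were found in the rich wells, summing to 5.26 to 145 per 10000 transcripts with a median of 94.3, against a median of 0 in the other wells. Of 6 endothelial markers named, 1 was found in 1 rich well and Cdh5, Emcn, Tek, Flt1 and Egfl7 were at 0. Osteoblast markers, 4 of 6 named, summed to 5.26 to 93.4 per 10000 in the 19 wells, mostly through Col1a2, with 667 transcripts in all 19. Col1a1 had 44 transcripts in 5 wells, Alpl 3 and Ifitm5 1 in 1 well each, and Sp7 and Dmp1 were at 0. Of the markers of osteoclasts, a cell type that also makes Spp1, Ctsk had 32 transcripts in 10 rich wells and 4 in the others, while Acp5 and Mmp9 had 1 each against 256 and 122, and Atp6v0d2 had 0 against 1. Smooth muscle and Schwann markers were at 0, and of 6 macrophage markers 1 was found, in 1 well. Of 8 neutrophil markers 7 were found, at 0 to 1889 per 10000 with a median of 1.38. The highest value belongs to the well of 1456 transcripts with 1.58% Cxcl12, and all 5 members were still called where rich wells needed at least 2% Cxcl12, which leaves that well out.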

How the data were processed

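Single cells on 4 plates were measured by SORT-seq, a plate method that counts transcripts by unique molecular identifiers (UMIs), per the labels' protocols. The deposited values are expected counts: transcripts per gene and well, which the authors did not scale between wells. The submitters' processing notes name the aligner BWA (0.7.15) and the mouse build mm10. Counter, annotation and strand setting were not given in the sources used here. The values fit a correction for UMI saturation, which no label records; plain counts had been assumed when the tests were set, and sums were rounded to whole numbers.

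The members and the gene lists were chosen with earlier results of these data known. Wells were read in row order, which the labels do not state, and carry numbers but no barcodes that could be compared. Wells with at least 1000 transcripts were kept (343), the other 1193 left out, and transcripts summed per plate and sort (97029 to 1707031 per library). Sums were compared with edgeR 4.0.16 in R 4.3.3 (quasi-likelihood test, TMM factors, filterByExpr, two-sided, Benjamini-Hochberg adjustment over all genes tested, threshold 0.05). The SE is the absolute log2 difference divided by the square root of the F statistic. CPM used the summed library without TMM factors. Cxcl12-rich and other wells were summed separately per library and fitted with the library as a block. DESeq2 1.42.0 was an alternative. Scripts were tested on simulated data. The sort fit recovered 43 of 100 changes of 4-fold and 71 of 100 of 16-fold, with 7 false calls. The class fit recovered 48 of 100 and 55 of 100, with 5 false calls. A gene that was not called may therefore still differ.

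Same-numbered libraries had correlations of 0.42, 0.29 and 0.34 of deviations from the sort mean over 2463 genes, and other combinations -0.35 to 0.07; replicates 2 and 3 of both sorts share plates per the labels, so the numbers were taken to pair the libraries. Other settings tried were library size alone, no filter, each library left out, other limits on wells and on Cxcl12, wells of low quality (118) or above the 99th percentile left out, and thinning. Wells were of low quality where 8 genes that follow Kcnq1ot1 took at least 10% of the transcripts or mitochondrial genes at least 50%, limits set after the data were seen. Genes named beside the members were, per member, the 3 with the highest correlation and, per list, up to 6 of those that passed with the smallest p. Genes that did not pass were named from the lists after their values were seen.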

Additional observations from a re-analysis of the deposited data

Results flagged for a closer look

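A signal outside the wells used above was seen among the 1193 wells left out for having under 1000 transcripts. In 9 of them Cxcl12 had at least 10 transcripts and made up at least 1% of the total, which lay between 217 and 896. They came from CD44- replicate 1 in 7 cases and from the CD44+ sort in 2. Spp1 was found in 7 of these wells (14 transcripts), Ibsp in 6 (22), Lpl in 4 (13), Cdh11 in 1 (2) and Runx2 in 0, which allows a share of up to 33.3%.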

How the results depend on the processing

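The count of members lower in the CD44+ sort was 2 of 5, and 5 with the replicate block, with DESeq2, with no filter and on the shared plates alone. With no filter, 335 of 16924 genes in all were called lower. The count was 0 of 4 tested without wells above the 99th percentile, where 5 of 2237 genes in all were called lower. With every well thinned it was 0 of 1 tested (Ibsp, -2.32, adjusted p = 0.533 by edgeR), and 0 of 503 genes in all were called. Leaving out 1 library each gave 0 to 5. Fewer samples, wells or transcripts enter where the count fell. Fewer samples also entered on the shared plates alone and without CD44- replicate 1, where all 5 were called. The cause was not tested. The block changed no call of the class comparison. Every member stood lower in the CD44+ sort under each alternative in which it was tested, Runx2 between -4.23 and -3.24, Spp1 between -4.67 and -2.70, Ibsp between -3.78 and -2.32, Cdh11 between -4.76 and -3.57 and Lpl between -3.48 and -2.00. The limit of the filter given with the sort comparison holds equally with the block and with DESeq2, which used the same filter. It does not apply with no filter and was not followed through the remaining settings. In the class comparison every member tested was called higher under every alternative. The limit of the filter given with that comparison applies to all of them but the setting with no filter. Runx2 fell below the filter without CD44- replicate 3, without wells of low quality, with at least 2000 transcripts and after thinning. The difference in the share of wells with Spp1 was 0.15 percentage points, now higher in the CD44+ sort, without the Cxcl12-rich wells (exact permutation p = 1). In the CD44- libraries, a member below about 20 to 30 CPM cannot be told from 0.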

Other observations

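Outside the Cxcl12-rich wells, the wells with the most transcripts of a member mostly carried blood cell markers. The ranking used transcripts not scaled to depth and so favours deep wells. The highest Lpl count there, 14 transcripts, was in a CD44+ replicate 2 well of 11512 transcripts, in which neutrophil markers made up 1941 and niche stroma markers 72.6 per 10000 and Cxcl12 0.587%. The next, 9 Lpl transcripts, was in a well of 44604 transcripts with neutrophil markers at 108 per 10000 and no Cxcl12. A CD44+ replicate 2 well of 62249 transcripts held the highest counts of both Ibsp (13) and Cdh11 (8) among these wells, with all 8 neutrophil markers and 6 of 7 B lineage markers, at 90.2 and 34.2 per 10000. The next Cdh11 count, 7, was in a CD44- replicate 1 well of only 2598 transcripts with Cxcl12 at 0.501%. Neutrophil markers made up 1259 and niche stroma markers 96.3 per 10000 there. Runx2 reached 6 transcripts in a CD44+ replicate 3 well of 34658 transcripts with neutrophil markers at 380 per 10000, and 7 in a CD44- replicate 1 well of low quality with 0 Cxcl12. Spp1 never exceeded 2 transcripts in an other well. Whether these wells held more than 1 cell was not tested.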
